A study of Mus musculus with 6 samples.

Results

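Of the 65956 probe sets on the array, 33206 had no entry in the platform's gene annotation, and 12759 of these are described here. They were taken as the unlisted probe sets whose mean log2 value over the 6 arrays was at least 1.92, the median of the means of all probe sets on the array. That level kept 38.4% of the unlisted probe sets, against 62% of the 31083 with exactly 1 listed gene, and left 20447 unlisted probe sets below it. The rule used the mean over both groups, so the level of the 12759 is not a finding, while the difference between the groups did not choose them. A chromosome code stood in the ID of 12684 of them, in the 2 characters after TC, and 75 carried none. They are called unlisted probe sets below, and those with 1 gene listed probe sets.

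The arrays measured total RNA of LSK cells, which are bone marrow cells sorted as Lineage-, c-Kit+ and Sca1+ and hold the blood stem and early progenitor cells. The 3 knockout samples came from miR-21 flox/flox mice with Mx1-Cre, and the 3 control samples from miR-21 flox/flox littermates without Cre. Mice of both groups were 4 to 6 weeks old when given 7 intraperitoneal injections of 250 μg pIpC, a double-stranded RNA mimic that induces interferon, and were used 4 weeks later. The controls thus carried the floxed alleles and had the same injections, whereas Cre was present in the knockout mice alone, so that effects of Cre and of the deletion cannot be told apart. The Mx1 promoter answers to interferon and is not limited to blood cells. The labels call the samples biological replicates and do not say whether each was 1 mouse or a pool, and p-values below measure the spread between these samples.

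A large share of a mammalian genome is transcribed outside the exons of protein-coding genes. Such RNA includes long non-coding RNAs, transcripts made from enhancers or antisense to genes, and unspliced introns, and much of it stays in the nucleus and is degraded there by the nuclear exosome. miR-21 is a microRNA that lowers messenger RNAs by pairing through its seed. Its mature main strand is shown because it is what the floxed alleles remove, with bases 2 to 8, the seed, in capitals (RefSeq, GRCm38.p6, chr11:86584120-86584141, - strand).
mmu-miR-21a-5p: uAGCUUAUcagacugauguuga

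Array medians over all probe sets lay between 1.89 and 1.95. Over the unlisted probe sets, arrays of the same group correlated at 0.989 to 0.993 (6 pairs) and arrays of different groups at 0.961 to 0.977 (9 pairs). Markers of other cells differed between the groups. All 7 neutrophil markers (S100a8, S100a9, Ltf, Camp, Ngp, Mmp9 and Ly6g) were higher in the knockout, and the log2 of their summed level was 8.68 to 8.87 in knockout and 7.28 to 7.56 in control arrays. All 3 mast cell and basophil markers were higher, at a summed 7.04 to 7.37 against 5.79 to 5.98. Of 7 LSK markers with a probe set of their own, 5 were lower and 1 was higher, with summed levels of 10.03 to 10.04 against 10.37 to 10.38. T cell markers did not pass, at 4.27 to 4.35 against 4.26 to 4.31. Of B cell markers 1 of 4 was higher (6.16 to 6.19 against 6.05 to 6.07), of NK cell markers 1 of 3 (3.58 to 3.68 against 3.28 to 3.29), of macrophage markers 1 of 4 (5.81 to 5.86 against 5.31 to 5.55) and of megakaryocyte markers 2 of 3 (7.18 to 7.21 against 6.68 to 6.74). Of 3 endothelial markers 1 was lower (4.07 to 4.40 against 4.78 to 5.12). No marker could be at 0 on this log scale, and 2 T cell, 2 NK cell, 1 macrophage and 1 endothelial marker and the single erythroblast marker measured were under 1.92. In sorted bulk samples, fewer cells of a type and less RNA per cell cannot be told apart, and the part of these cells in the results below was not tested.

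More unlisted probe sets were lower than higher in the knockout. Of the 12759, 2404 (18.8%) were lower and 770 (6.03%) were higher at an adjusted p under 0.05 (limma, two-sided, Benjamini-Hochberg adjustment over 32985 probe sets at or above the level). Over all 32985, which include these, 13.4% were lower, 11.5% were higher and 24.9% passed in either direction. The share passing among the unlisted, 24.9%, was thus the same as over everything tested, and the split was not, since 75.7% of the passing unlisted probe sets were lower. Of 19262 listed probe sets, 1934 (10%) were lower and 2848 (14.8%) were higher, so that 40.4% of those passing were lower. Without knockout replicate 1, knockout replicate 3 or control replicate 1, the 770 higher became 513, 440 and 492. Without knockout replicate 2, control replicate 2 or control replicate 3, they became 529, 524 and 673. The 2404 lower became 1913 to 2265 over these fits, each of which had fewer arrays.

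Most unlisted probe sets, 9585, did not pass. Over all 12759 the median change was -0.01 (quartiles -0.26 and 0.13), beside 0.07 for listed probe sets and 0.04 for all tested. Per array, the median of the unlisted probe sets was 2.99, 2.96 and 2.99 in the knockout samples and 3.09, 3.12 and 3.08 in the controls, and the groups did not overlap. For listed probe sets the same medians were 4.29, 4.26 and 4.29 against 4.26, 4.23 and 4.24. The listed medians of the groups touched at 4.26. With each array centred on its listed median, 83.3% of passing unlisted and 51.8% of passing listed probe sets were lower. Under that scaling the split of the listed turned from 2848 higher and 1934 lower to 2196 and 2361, and that of all tested moved from 54% to 64.4% lower.

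Large falls outnumbered large rises. Among unlisted probe sets, 1252 (9.81%) passed and were at least 1.5-fold lower and 109 (0.854%) at least 1.5-fold higher, with 5.22% and 1.46% over all tested. At 2-fold or more there were 410 lower (3.21%) and 22 higher (0.172%), with 1.66% and 0.349% over all tested, and 133 lower and 86 higher among listed probe sets. At 4-fold or more, 29 unlisted probe sets (0.227%) were lower and 0 were higher, with 0.127% and 0.0333% over all tested. Among listed probe sets 13 (0.0675%) were lower and 11 (0.0571%) higher. The median change was -0.61 over the unlisted probe sets that were lower and 0.37 over those that were higher. Counting arrays alone, all 3 knockout values lay below all 3 control values for 3283 unlisted probe sets (25.7%) and above them for 1797 (14.1%). Over all tested these shares were 20.5% and 24.4%, and 45% in either direction.

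The share that was lower varied with the level. It was 9.33% among the 3924 unlisted probe sets with a mean of 1.92 to 2.5, then 14.7%, 21.7% and 31.4% in the next ranges (2.5 to 3, 3 to 4 and 4 to 5). It reached 34.9% of the 835 with a mean of 5 to 6 and was 15.6% of the 507 at 8 or above. Listed probe sets had a smaller share lower in each of the 7 ranges, with 1.92%, 4.42%, 7.22% and 13.5% in the first 4, 15.8% from 5 to 6 and 5.38% at 8 or above. The share higher was smaller among the unlisted in each range, for instance 8.72% against 17.3% from 4 to 5. The smaller share higher and larger share lower were thus present within each range, although unlisted probe sets were dimmer as a whole, with a median level of 3.03 against 4.26.

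**Figure D1:**
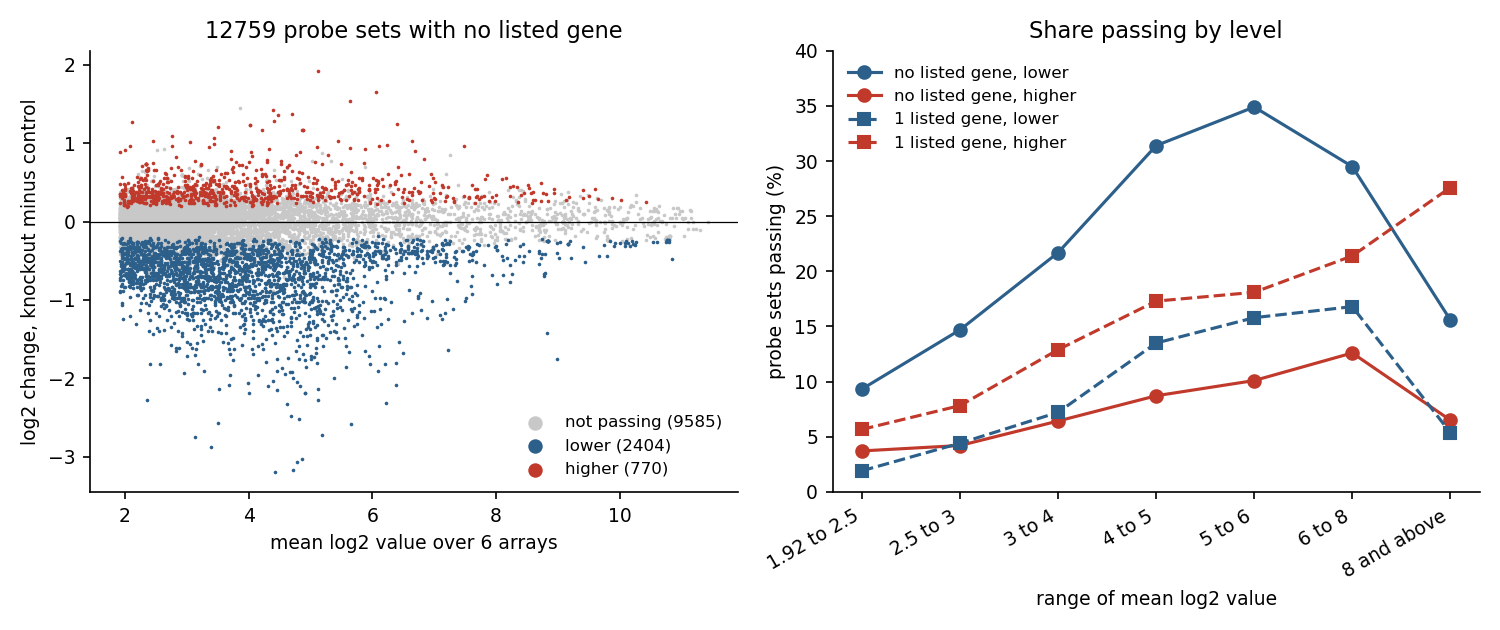
Left, log2 change (knockout minus control) against the mean log2 value over 6 arrays for each unlisted probe set, coloured by whether it passed as lower, passed as higher or did not pass. Right, percent of unlisted and of listed single-gene probe sets passing in each direction by range of mean level; the share lower among the unlisted peaks at 34.9% between 5 and 6.

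Probe sets close to the level had small values in both groups. The 3 just above it were TC1300000521.mm.1, TC1500001221.mm.1 and TC0100001160.mm.1, with changes of 0.24, 0.05 and 0.03. The 3 unlisted ones just below it were TC1600001530.mm.1, TC1400000217.mm.1 and TC0600001896.mm.1, with changes of 0.27, 0.02 and 0.01. For 676 of the 12759, 1 group's mean was under the level, and 190 of these were lower and 42 higher. The 12083 with both means above it held 2214 lower and 728 higher. Of all 12759, 18.8% were lower and 6.03% higher, beside 13.4% and 11.5% over all tested. The share lower was larger among the 676 than among the 12083. The 676 reached the level through their higher group alone, so that difference is not a finding.

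The excess of lower over higher unlisted probe sets was present on each of the 20 chromosomes 1 to 19 and X. Among listed probe sets lower outnumbered higher on 3 of these 20, chromosomes 1, 3 and 18. On each of the 20, the share lower was larger and the share higher smaller among unlisted than among listed probe sets. The largest share of lower ones was 24.3% of 573 on chromosome 13, which also had the largest share of higher ones, 9.08%. Chromosome 18 had 23.4% of 350 lower and chromosome 17 had 23% of 601. The smallest share lower was 11.7% of 716 on chromosome 7, where 84 were lower and 56 higher. On chromosome 3, 118 were lower and 12 higher, the widest ratio. Chromosome 11, which carries Mir21a, was in the middle with 18.6% of 975 lower and 7.08% higher, and 36 of them (3.69%) were at least 2-fold lower, near the 3.21% of all unlisted ones. That share was largest on chromosomes 13 (5.76%) and 18 (5.14%) of these 20. The smaller codes followed with 4 lower and 1 higher of 20 on Y, 2 and 1 of 13 on the mitochondrial genome, and 4 and 1 of 75 without a code.

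**Figure D2:**
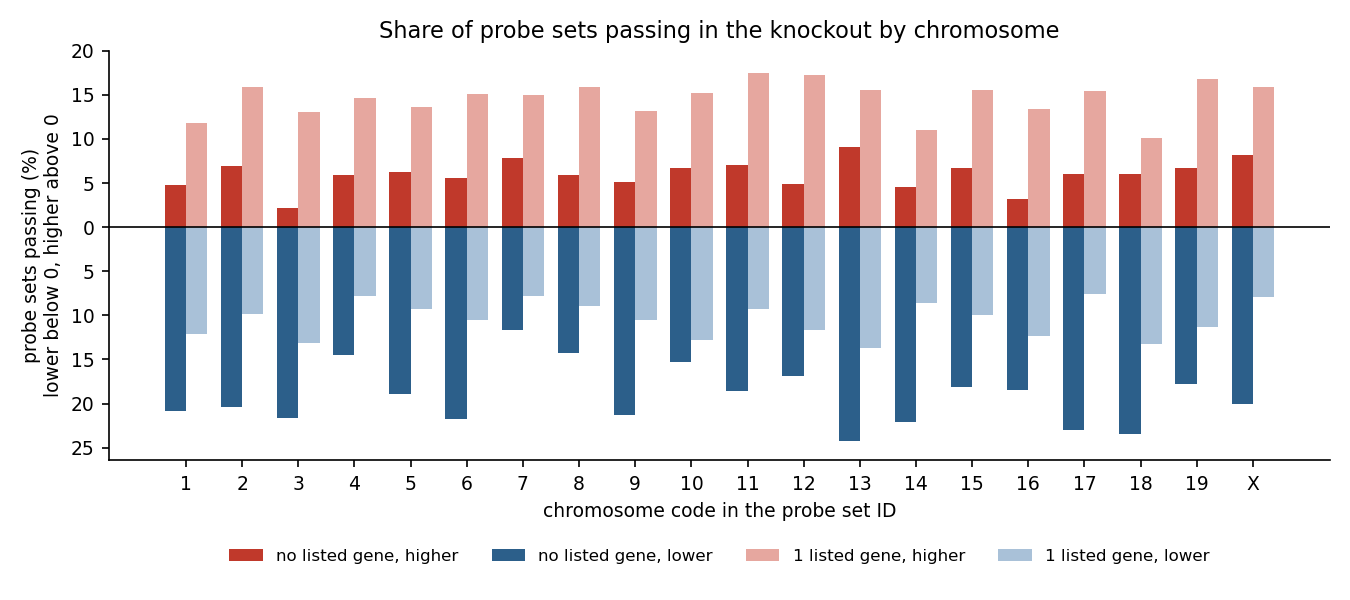
Percent of probe sets passing as higher (bars above 0) and lower (bars below 0) in the knockout, by chromosome code, for unlisted (dark) and listed single-gene (pale) probe sets. The dark bars reach farther below than above 0 on all 20 chromosomes, from 11.7% lower on chromosome 7 to 24.3% on chromosome 13.

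The 10 largest falls were 5.72-fold to 9.15-fold and came from 7 chromosomes. Group means were 1.76 to 4.37 in the knockout and 4.51 to 6.95 in the controls. The arrays of the groups did not overlap for any of the 10, nor for 45% of all tested probe sets, and the 10 were picked by size. To place them, the nearest ID number with 1 listed gene and a mean at or above 1.92 was read on the same chromosome code. Listed probe sets under that level or with several genes were skipped, so a skipped one can be numbered nearer. Of 23245 listed probe sets, 99.6% had the chromosome of their RefSeq gene. On chromosomes 1 to 17, 19 and X, number and gene start had a median Spearman correlation of 0.96 (lowest 0.80) over 38 chromosome strands, as a description. On Y it was 0.66 and 0.26 for the strands, so neighbours by number there need not be neighbours on the chromosome, and chromosome 18, which holds 3 of the 10, was not checked. The order was checked within each strand alone, so a gene on the other strand can lie nearer than the one with the nearest number. Whether an unlisted probe set lies inside, beside or antisense to the gene with the nearest number is not given. The nearest listed probe set was lower for 7 of the 10 and did not pass for 1. For the other 2, a pair of listed probe sets was equally near, of which 1 was lower and 1 did not pass.

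TC1800000095.mm.1 measured 2.86, 2.78 and 2.86 in the knockout samples and 6.09, 6.18 and 5.82 in the controls. It was lower by a log2 change of -3.19 ± 0.10 (SE, n = 3 per group), 9.15-fold, at an adjusted p of 8.70e-06 by limma. TC1800000096.mm.1, the next number, measured 3.26, 3.03 and 3.48 against 6.44, 6.39 and 6.14, a change of -3.07 ± 0.13. The nearest listed probe set of the first is Cables1, an adaptor of cyclin-dependent kinases, which fell by 1.70 on the log2 scale (adjusted p = 3.28e-05, limma). The second is 2 numbers from both Cables1 and Riok3, a kinase of ribosome assembly, which did not pass at -0.23 (adjusted p = 0.0586, limma). TC1800000673.mm.1 measured 3.13, 2.96 and 3.34 against 6.24, 6.37 and 6.29, a change of -3.16 ± 0.10. It is numbered next to Malt1, a protease of the signalling complex that activates NF-κB, which was lower at -1.81 ± 0.09.

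TC1600001581.mm.1 measured 2.22, 1.41 and 2.23 in the knockout and 4.75, 4.90 and 4.83 in the controls, a change of -2.87 ± 0.21 (adjusted p = 1.13e-04, limma). Its number lies between those of Cd86, a co-stimulatory ligand for T cells, at -2.18 ± 0.07, and Slc15a2, a peptide transporter, at -1.57, both lower. TC1700002702.mm.1 measured 4.01, 3.78 and 3.70 against 6.53, 6.63 and 6.50, a change of -2.72 ± 0.09. It is next to Fbxo11, a substrate receptor of a ubiquitin ligase, which was lower at -0.94 ± 0.07. TC1100002771.mm.1 measured 1.78, 1.70 and 1.81 against 4.36, 4.72 and 4.45, so that the knockout values were under the level of 1.92. It is between Tnip1, which restrains NF-κB signalling, at -0.30 (adjusted p = 0.012, limma), and Anxa6, a membrane-binding protein, at -0.16 and not passing.

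TC1300000975.mm.1 measured 4.42, 4.23 and 4.47 in the knockout and 6.91, 7.08 and 6.87 in the controls, a change of -2.58 ± 0.09. It is 3 numbers from Mef2c, a transcription factor of lymphoid and myeloid progenitors, at -0.74. TC1200000649.mm.1 measured 3.79, 3.37 and 3.54 against 5.99, 6.27 and 5.99, a change of -2.52 ± 0.12, and is numbered between Prkch, a protein kinase C, at -0.54, and Hif1a, the oxygen-regulated transcription factor, at -0.57. TC1300002632.mm.1 measured 2.36, 1.73 and 2.57 against 4.64, 4.82 and 4.90, a change of -2.57 ± 0.20. The annotation gives its nearest listed probe set, 2 numbers away, as Mir325, at -1.89, and Zswim6 follows at -0.44. TC0500002809.mm.1 is the exception among the 10: it measured 3.45, 3.10 and 3.53 against 6.32, 6.56 and 6.30, a change of -3.03 ± 0.13, and its nearest listed probe set, A730035I17Rik, did not pass (0.08, adjusted p = 0.534, limma).

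The 10 largest rises were smaller, with changes of 1.23 to 1.92, and also came from 7 chromosomes. Knockout means were 2.74 to 7.02 and control means 1.48 to 5.78. The arrays of the groups did not overlap, and these 10 too were picked by the size of the change. TC1000000229.mm.1 rose most, from 4.13, 4.21 and 4.18 in the controls to 6.22, 5.91 and 6.15 in the knockout, a change of 1.92 ± 0.09 or 3.79-fold (adjusted p = 2.46e-05, limma). Its nearest listed probe set, Gm9767, did not pass at 0.06. TC0400000335.mm.1 measured 6.98, 6.72 and 6.96 against 5.28, 5.32 and 5.11, a change of 1.65 ± 0.09, and TC1000001918.mm.1 measured 6.54, 6.22 and 6.46 against 4.86, 4.97 and 4.79, a change of 1.53 ± 0.10. The nearest listed probe set was higher for 4 of the 10, lower for 0 and did not pass for 4, and for 2 an equally near pair held 1 that was higher and 1 that did not pass.

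TC1700002352.mm.1 measured 4.64, 4.57 and 4.68 in the knockout and 3.38, 3.42 and 3.40 in the controls, a change of 1.23 ± 0.06. It is numbered between Tnfsf14, a cytokine of the tumour necrosis factor family that was higher at 0.57 (adjusted p = 0.00336, limma), and Mir6978, which did not pass at 0.07. TC1500001828.mm.1 measured 7.01, 7.08 and 6.98 against 5.80, 5.88 and 5.67, a change of 1.24 ± 0.08, beside Pvalb, a calcium-binding protein, at 0.27, and Ift27, a transport protein of cilia, at 0.50. TC0M00000001.mm.1, the first number of the mitochondrial genome, measured 5.19, 4.82 and 5.31 against 3.38, 3.55 and 4.15, a change of 1.42 ± 0.21 (adjusted p = 0.00261, limma). The mitochondrial small ribosomal RNA probe set next to it, mt-Rnr1, was at 0.14 and did not pass.

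TC1000001080.mm.1, TC0800001472.mm.1 and TC0100003418.mm.1 were higher by 1.37 ± 0.12, 1.36 ± 0.11 and 1.27 ± 0.11. For TC0100003418.mm.1 the values were 2.78, 2.68 and 2.76 in the knockout and 1.55, 1.22 and 1.66 in the controls. Its control values were thus all under the level. TC1700000137.mm.1 spread most within a group, with 5.16, 4.64 and 5.34 in the knockout and 2.81, 4.04 and 4.46 in the controls. Its change of 1.28 ± 0.39 passed at an adjusted p of 0.0464 (limma) and no longer passed without knockout replicate 1, 2 or 3 or control replicate 2 (adjusted p = 0.107, 0.0556, 0.126 and 0.0717), with all probe sets fitted (0.0703), or centred on listed medians (0.0519).

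**Figure D3:**
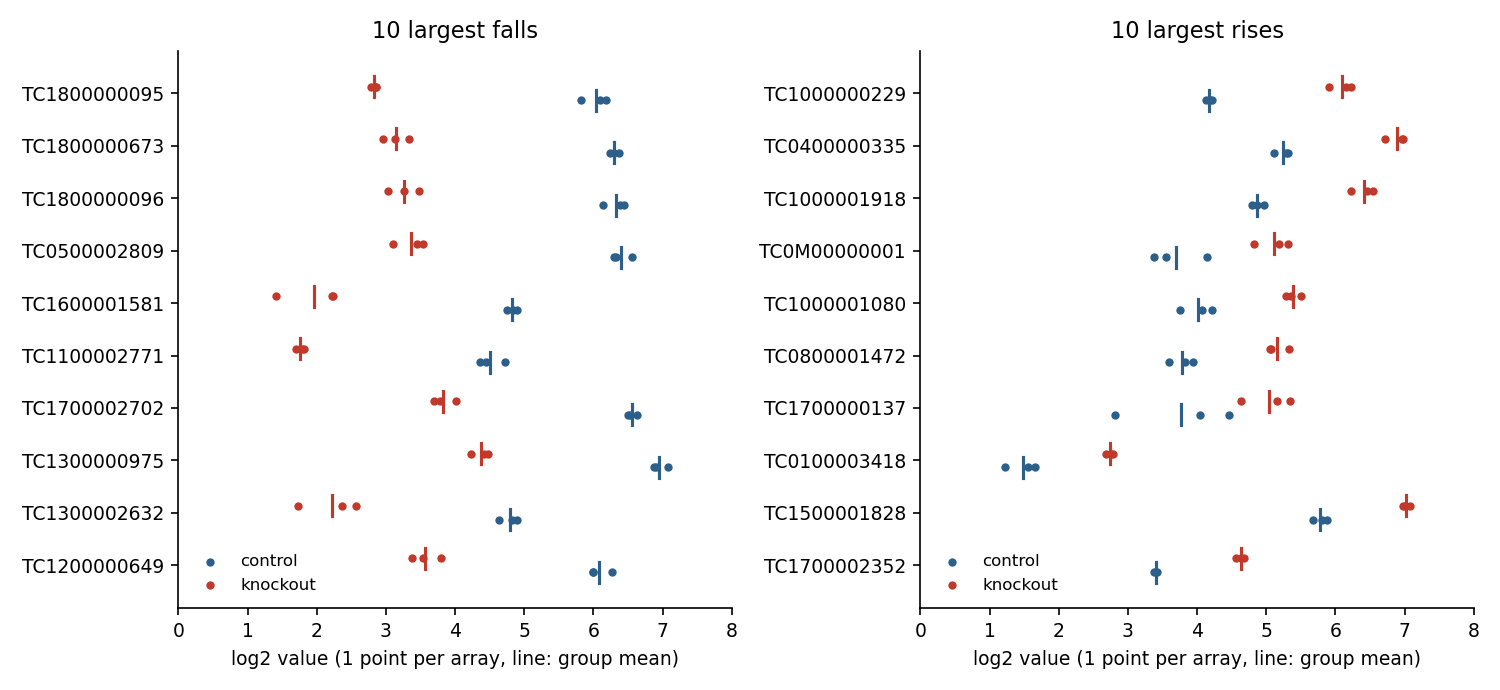
Log2 values of the 10 unlisted probe sets with the largest falls (left) and rises (right) in the knockout. Each point is 1 array and each line a group mean (n = 3 per group). Rows were picked by the size of the change, and the points of the groups do not overlap in any row. The falls start from control means of 4.51 to 6.95.

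The largest change on a chromosome was a fall for 22 of the 23 chromosome codes, the exception being the mitochondrial genome. For 22 of the 23, the mitochondrial one included, a nearest listed probe set was found; it was lower for 10, did not pass for 9 and was higher for 0, and for 3 an equally near pair held 1 lower and 1 that did not pass. TC1900000690.mm.1 measured 5.44, 5.36 and 5.25 in the knockout and 7.54, 7.43 and 7.32 in the controls, a change of -2.08 ± 0.08, between Nfkb2, a subunit of NF-κB that was lower at -1.10, and Fbxl15, which did not pass at 0.13. TC0800000417.mm.1, at -2.09, is next to Dusp4, a phosphatase of MAP kinases that was lower at -1.18. TC0600002016.mm.1, at -2.15, is next to Gm13835, which did not pass at 0.22, and 3 numbers from Lncpint, a long non-coding RNA that was lower at -1.51. On the sex chromosomes, TC0Y00000225.mm.1 measured 5.15, 5.17 and 4.90 against 7.43, 7.45 and 7.25, a change of -2.31 ± 0.10, and TC0X00001713.mm.1 was at -2.05. Both are numbered near probe sets listed as Mid1, a ubiquitin ligase gene at the edge of the region shared by X and Y, at -1.63 for the Y code and -1.15 for the X code. Uba1y, as near to the Y-coded one, did not pass at 0.08, and Gm21887, nearer to the X-coded one, was lower at -1.05. Near-identical X and Y copies cannot be told apart on an array. Among Y-linked genes, Eif2s3y and Kdm5d were lower by changes of -0.49 and -0.25 and Uty did not pass at -0.05, and Xist was at 0.94 to 1.10 on every array, under the level.

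The brightest unlisted probe sets differed little between the groups. The 5 with the highest means, 11.19 to 11.43, had changes of -0.11 to -0.01, and none passed (limma). They were TC0200002613.mm.1 (adjusted p = 0.889), TC1100003794.mm.1 (0.242), TC1500000918.mm.1 (0.234), TC1100001295.mm.1 (0.944) and TC0400000876.mm.1 (0.289).

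The share of unlisted probe sets that was lower differed with the call of the listed neighbour. A listed probe set at or above the level lay within 5 numbers of 11812 unlisted ones, of which 19.2% were lower and 6.02% higher. Where the listed neighbour was lower (1853), 40.3% of the unlisted were lower and 3.02% higher, with a median change of -0.24. Where it was higher (1466), 9.21% were lower and 10.6% higher, with a median of 0.05. Where it did not pass (8493), 16.3% were lower and 5.89% higher, so that 1388 of the lower ones had a neighbour that did not pass. For 2474 a pair of listed probe sets was equally near and the lower number was taken. With the higher number, the shares lower were 37.6%, 10.9% and 16.9% beside a lower, higher and not passing neighbour, and 40.2%, 10.2% and 16.5% for the untied alone. These are descriptions: neighbours share arrays, and several unlisted probe sets share 1 neighbour.

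**Figure D4:**
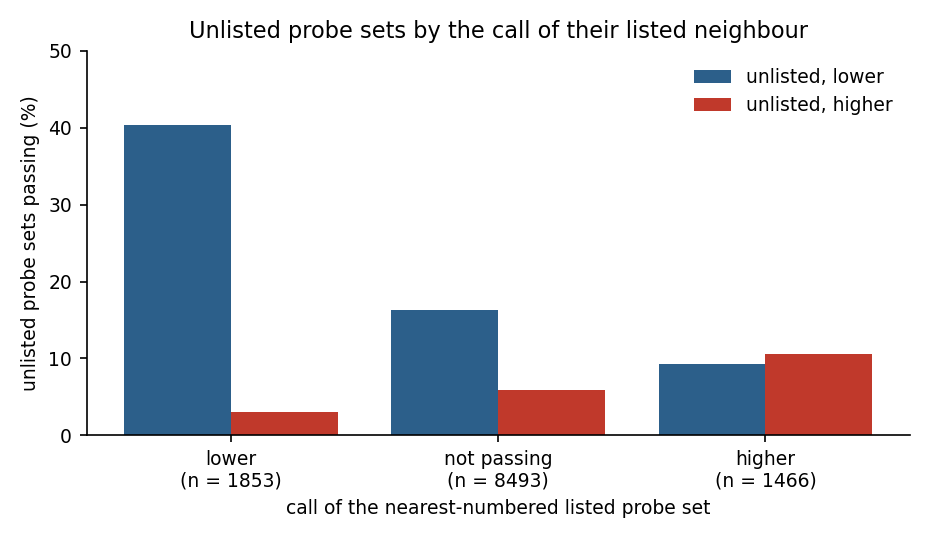
Percent of unlisted probe sets that passed as lower or higher in the knockout, grouped by the call of their listed neighbour. The neighbour is the listed single-gene probe set at or above the level with the nearest ID number (within 5). The share lower is 40.3% beside a lower neighbour, 16.3% beside one that did not pass and 9.21% beside a higher one.

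Changes of unlisted and listed neighbours correlated at a Pearson r of 0.363 for the 6677 pairs 1 number apart and at 0.287, 0.226, 0.124 and 0.187 for 2, 3, 4 and 5 numbers. For unlisted probe sets 1 number apart from each other r was 0.577 over 3678 pairs, of which 528 were both lower, 44 both higher and 27 opposite. These correlations are across probe sets of the same arrays, which are not independent. Pairs in which both passed were then set side by side, and the sizes of their changes depend in part on that choice. Over all probe sets that were lower, the median change was -0.61 for unlisted and -0.41 for listed ones. In the 746 pairs in which both were lower, holding 513 listed neighbours, the unlisted probe set had a median change of -0.77 and the listed one -0.41. The unlisted change was larger in 592 (79.4%). In the 155 pairs in which both were higher the medians were 0.41 and 0.38, and the unlisted change was larger in 93 (60%). Of the 410 that were at least 2-fold lower, 398 had such a neighbour, which was lower for 220, did not pass for 162 and was higher for 16. Of the 22 at least 2-fold higher, 21 had one, which was higher for 11, did not pass for 10 and was lower for 0.

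Some listed genes had several lower unlisted probe sets as their nearest. For 29 listed probe sets, at least 4 unlisted ones were lower, 131 in all, and the listed probe set itself was lower for 21, did not pass for 8 and was higher for 0 (ties to the higher number gave 25, with 16 lower). Around Gm19665, which has the most, 8 of 10 were lower, with a median of -0.60 over all 10, and the listed probe set did not pass at -0.26. Around R3hcc1 5 of 6 were lower, with a median of -0.96 over all 6, and around Gm15711 all 5 were lower at a median of -0.76. R3hcc1 and Gm15711 did not pass at 0.03 and 0.28. All 5 around Fbxo11 were lower, with a median change of -1.69. All 5 around Wnk1, a kinase that regulates ion transport, were lower at a median of -0.72, where the gene was at -0.74. All 5 around Aff3, a nuclear protein of the lymphoid lineage, were lower at a median of -0.81 against -0.42 for the gene. All 4 around Angpt1, the ligand of the receptor Tek on stem cells, were lower at a median of -0.68 against -0.93. Around Satb1, a chromatin organiser of lymphoid progenitors, 4 of 6 were lower, with a median of -1.02 over all 6 against -0.57. Around Sik3, a salt-inducible kinase, 4 of 5 were lower, with a median of -1.14 over all 5 against -0.40. Around Pitpnc1, a phospholipid transfer protein, all 6 were lower at a median of -0.70 against -0.23. In the other direction, no listed probe set had 4 higher ones nearest to it. Those with 3 were Gm5265, Gm4258, Gm9742, Parp8, Bcl11a and Zfp940, and none of them passed. Around Bcl11a, a transcription factor of B cells and stem cells, 3 of 4 were higher, with a median of 0.60 over all 4, and the gene was at -0.17.

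Runs were read along the unlisted probe sets at or above the level, skipping listed ones and those under it. Of all these unlisted probe sets, 18.8% were lower and 6.03% higher, so lower runs are likelier from the shares alone. The number expected from the shares was not computed. Runs in which at least 4 in succession passed the same way numbered 82 for lower, with 405 probe sets, and 1 for higher, with 5. The longest, 10 on chromosome 13 from TC1300001704.mm.1 to TC1300001716.mm.1, had changes of -1.49 to -0.84 and a median of -1.15. Its values were 1.88 to 4.89 in knockout and 2.84 to 6.34 in control arrays. Each of the 10, all of which had passed, separated the groups, as did 45% of all tested probe sets. Between them lie the listed 2610307P16Rik at -0.60, Gm6081 at -0.86 and Mir6368 at -1.02, all lower, and 6 numbers after the run comes Sox4, a transcription factor of early progenitors, at -0.27 (adjusted p = 0.0158, limma). A run of 7 on chromosome 13 ending at TC1300002636.mm.1 had changes from -2.57 to -0.51 with a median of -1.90, the lowest median among runs of at least 7. A run of 8 on chromosome 1 followed Aff3 at a median of -0.64, and a run of 7 on chromosome 9 followed Sik3 at -1.14. Runs of 9 on chromosomes 16 and 17 had medians of -0.76 and -0.73. Inside the one on chromosome 17, a probe set that the annotation gives as Kpna2 was at 0.90. Whether it measures that gene was not tested. The single higher run, 5 on chromosome 11 from TC1100002878.mm.1 to TC1100002891.mm.1, had changes of 0.40 to 0.42. Each probe set in it had nearly the same values, at 4.73 to 5.01 in knockout and 4.23 to 4.66 in control arrays. Between them lie the listed Gm12621, Gm12614, Gm12625, Gm12619 and Gm12624, all higher at 0.38 to 0.43. Gm12628, Gm12623, Gm12626 and Gm12612, also between them, did not pass at -0.02 to 0.22.

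Probe sets with exactly the same values were counted to see how far such copies carried the totals. Near copies, such as those of the higher run above, were not merged, so their part in the totals is not shown. All 6 values were shared with another probe set for 558 unlisted ones, of which 39 were lower and 19 higher, and the largest such group had 63. Counting each distinct set of 6 values once left 12310, with 2380 lower and 758 higher.

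Around the deleted locus, the probe set listed for both Vmp1 and Mir21a did not differ between the groups beyond its error. It measured 5.65, 5.64 and 5.76 in the knockout and 5.65, 5.60 and 5.63 in the controls, a change of 0.05 ± 0.06 (adjusted p = 0.592, limma). Since it covers Vmp1, the host gene that encodes an autophagy protein, as well as the microRNA's precursor, it does not check the deletion. Within 15 numbers of it lay 13 unlisted probe sets, of which 8 were lower, 1 was higher and 4 did not pass, beside 18.6% lower and 7.08% higher of all unlisted ones on chromosome 11 and 13.4% and 11.5% over all tested. These 13 are neighbours, and their calls are not independent. TC1100003449.mm.1, the number before it, measured 4.68, 4.66 and 4.86 in the knockout and 5.98, 6.07 and 5.74 in the controls, a change of -1.20 ± 0.10 (adjusted p = 2.20e-04, limma). TC1100003448.mm.1 measured 3.65, 3.73 and 3.65 against 4.93, 4.78 and 4.31, a change of -0.99 ± 0.15. Both separated the groups on all arrays, as did 45% of all tested probe sets.

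Farther from the Vmp1 and Mir21a probe set, TC1100003460.mm.1, 10 numbers after it, measured 6.57, 6.38 and 6.55 against 7.90, 7.63 and 7.70, a change of -1.24 ± 0.09. TC1100003442.mm.1, 8 numbers before it, measured 3.13, 2.95 and 2.71 against 4.00, 4.38 and 4.17, a change of -1.25. The other lower ones were TC1100003440.mm.1 at -0.79, TC1100003443.mm.1 at -0.47, TC1100003456.mm.1 at -0.85 and TC1100003458.mm.1 at -0.90, and TC1100003464.mm.1 was higher at 0.38. The 4 that did not pass were at -0.22 to -0.06. Among listed genes in the same stretch, Cltc, the clathrin heavy chain, was lower at -0.27, Med13, a Mediator subunit, was lower at -0.31, Ypel2 was higher at 0.29, and Dhx40, an RNA helicase, and Ints2, an Integrator subunit, did not pass at 0.05 and 0.13.

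**Figure D5:**
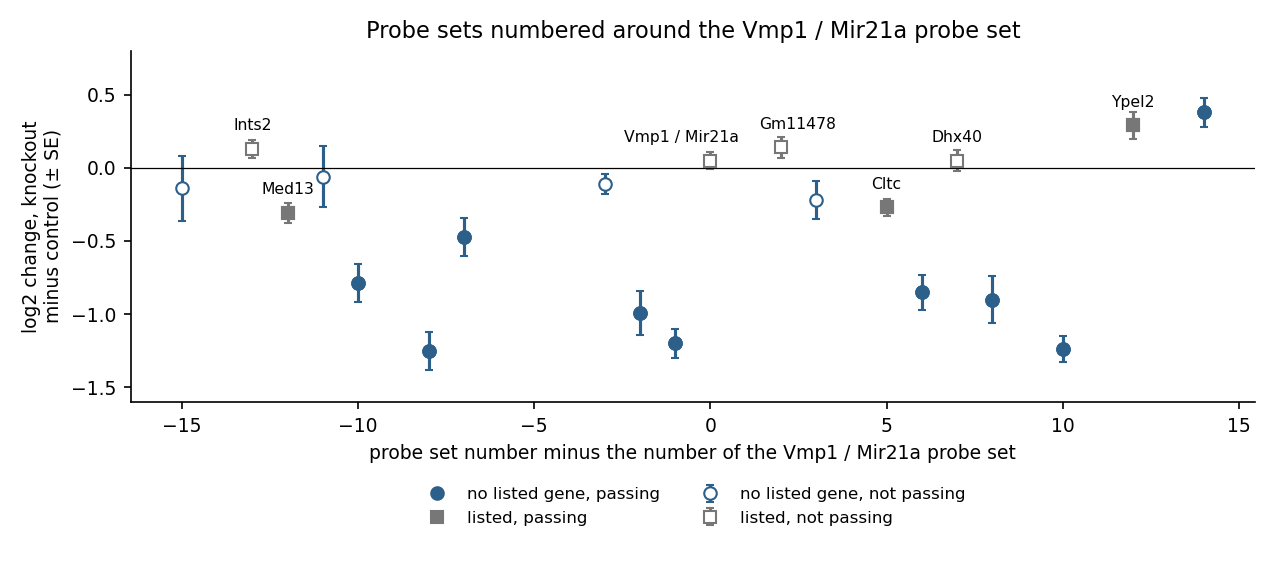
Log2 change (knockout minus control, bars ± SE, n = 3 per group) of unlisted (circles) and listed (squares) probe sets by ID number relative to the Vmp1 and Mir21a probe set. Filled symbols passed (adjusted p under 0.05); 8 unlisted probe sets lie between -1.25 and -0.47 on both sides of the Vmp1 and Mir21a probe set, which is at 0.05.

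Of 44 genes tested that make or degrade such RNA, 31 (70.5%) did not pass, beside 75.1% over all tested, 11 (25%) were higher and 2 (4.55%) lower, beside 11.5% and 13.4%. Of 19 genes of the nuclear exosome and its adaptors, 13 did not pass, 4 were higher and 2 were lower. Their median was 0.02, beside 0.04 over all tested. The subunits Exosc5 (0.47), Exosc4 (0.38), Exosc8 (0.28) and Exosc7 (0.23) were higher, and Rbm7 (-0.33), which guides the exosome to nuclear RNA, and Tent4b (-0.25), a poly(A) polymerase that marks RNA for it, were lower. Of 14 Integrator genes, whose complex ends non-coding transcription, 3 were higher (Ints5, Ints10 and Ints11, at 0.33, 0.31 and 0.32) and 0 lower, with a median of 0.08. Of 11 RNA polymerase II subunits, 4 were higher (Polr2j 0.45, Polr2f 0.40, Polr2i 0.37 and Polr2e 0.27) and 0 lower, with a median of 0.23. Of 15 named long non-coding RNAs tested, 3 were lower and 2 higher. Lncpint fell from a control mean of 5.59 to 4.08 (-1.51, adjusted p = 1.63e-04, limma), Malat1 was at -0.73 and Kcnq1ot1 at -0.27, while Rmrp (0.50) and Ftx (0.32) were higher.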

How the data were processed

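The deposited values are log2 signals per probe set from 6 Affymetrix arrays, made with RMA per the submitters' processing notes. The log base was read from the values, and the RMA version, probe set annotation and genome build are not given in the sources used here. RMA forces the arrays to 1 distribution, which removes a shift shared by most probe sets. Genes were taken from the platform annotation, which can be old: 31083 probe sets had 1 gene, 1667 several and 33206 none, and 122 of these had no chromosome code. Symbols were updated by Entrez ID through a RefSeq table for 23433. No gene was named for an unlisted probe set, and their sequences and coordinates were not used here.

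The groups (3 arrays each) were set against each other by limma (version 3.58.1, run in R 4.3.3, lmFit and eBayes without a covariate) over 32985 probe sets with a mean of at least 1.92, and adjusted over all of them. The method was tested on simulated data with independent noise for each probe set. That simulation had no normalization step and no correlation between neighbouring probe sets, so it does not check the calls under those conditions. Passing means an adjusted p under 0.05, and a difference is the knockout mean minus the control mean in log2. The number of arrays limits the precision.

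Probe sets named were the 10 highest and 10 lowest changes that passed, the 5 brightest and the 3 on each side of the level. Those passing within 15 numbers of the Mir21a probe set were also named. Of the largest passing changes per chromosome code and the runs of at least 4, only some were named. From each of the exosome, Integrator, polymerase II and long non-coding RNA lists, up to 4 genes by p were named. Every other passing gene of these lists was also named, a choice made with their values known. Markers were counted by cell type, and only the neutrophil and sex-linked ones were named. Some listed genes were also named that are numbered nearest to such probe sets on either side or lie inside a run. Others named had at least 4 lower or 3 higher unlisted ones nearest to them. This second choice was made with their values known. The probe sets and gene lists were chosen with earlier results of these data known. Alternatives changed the filter, the scaling, the fit, the weights, the replicate block and the replicates used.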

Additional observations from a re-analysis of the deposited data

How the results depend on the processing

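On each of the 20 chromosomes, lower unlisted probe sets outnumbered higher ones under every alternative run. With the level at the 75th percentile (fewer probe sets), 1947 passed, 1436 lower and 511 higher, with a median change of -0.062; the median was -0.042 with arrays centred on listed medians. Leaving out each replicate in turn gave 2437 to 2938 passing, 1913 to 2265 lower, 440 to 673 higher and medians of -0.025 to -0.004. With the replicate number as a block, 3595 passed, 2654 lower and 941 higher, with a median of -0.007. The numbers share no stated source: samples with the same number deviated together at correlations of 0.175, 0.196 and 0.071, and each sample correlated best with its own number, a hint from the data and not the design. Counting probe sets with the same 6 values once was chosen after seeing the data (3138 passing), as was the choice among equally near listed neighbours, which moved the share lower beside a lower neighbour to 37.6%. Among probe sets named, TC0200002613.mm.1 turned to 0.00 with a second quantile normalization and ran from -0.05 to 0.02 over the fits without 1 replicate, and TC1100001295.mm.1 ran from -0.03 to 0.00; neither passed in the fit reported. TC1700000137.mm.1 lost its call in 6 alternatives, as given above. The cause was not tested. Dim signals limit the fold changes of probe sets near 1.92.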
